A study of Mus musculus with 8 samples.

Results

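Transcripts of 39 genes of fatty acid uptake, storage and oxidation were compared in hearts of mice that lacked a conserved Actn2 enhancer on 1 or both chromosomes. Actn2 is the gene of the sarcomeric protein alpha-actinin 2. The members are a fixed list of gene symbols that applies no measured value as a criterion, although it was drawn up with earlier results of these data known. All 39 were found among the 24516 genes of the deposited count table, and all 39 were among the 15075 genes with enough counts to be tested, so no member was lost to the filter on low counts. By role, 6 act in uptake and activation, 7 in the carnitine shuttle and its control, 14 in beta-oxidation, 3 in electron transfer, 4 are thioesterases or uncoupling proteins, and 5 act in storage and lipolysis. The whole hearts were taken at 40 days of age and came from 1 litter according to the labels. They comprised 3 homozygous for the deletion, 3 heterozygous for it and 2 wild type. The deletion was made with CRISPR/Cas9 and is not limited to heart muscle cells, and the labels name no treatment, strain or further allele in any of the 3 groups. Each heart gave 1 bulk RNA-seq library, and nothing beyond the replicate number in the labels says how the samples were separated. For each gene the p-values rest on 1 spread within genotypes, shared by all 8 samples. The spread of the 2 wild-type hearts was not fitted apart.

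Heart muscle draws most of its energy from fatty acids after birth. Lipoprotein lipase releases them from circulating triglyceride, membrane and cytosolic carriers bring them to acyl-CoA synthetases, and the carnitine shuttle moves the acyl groups into mitochondria, where beta-oxidation removes acetyl-CoA units step by step. Electrons from the acyl-CoA dehydrogenases pass through the electron transfer flavoprotein to its dehydrogenase and on to the respiratory chain, while surplus acyl groups are stored as triglyceride in lipid droplets and released again by lipases.

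Libraries held 33197075 to 55902737 counts in homozygous, 22230090 to 31247412 in heterozygous and 25017723 and 30568468 counts in wild-type hearts. Levels are counts per 1000000 counts of the library (CPM) after scaling by TMM, which aligns the bulk of the genes between libraries. Across genes, the pair of wild-type libraries correlated at r = 0.952, below every pair of deletion libraries (0.969 to 0.982), and the correlations of wild type 2 with deletion libraries were 0.927 to 0.935. Actn2 itself had 2115, 1611 and 1791 CPM in homozygous, 1694, 1546 and 1638 CPM in heterozygous and 2187 and 2703 CPM in wild-type hearts. Its log2 fold change was -0.41 in homozygous hearts, where it did not pass the test, and -0.59 in heterozygous hearts, where it did. With an offset for gene properties, described further on, Actn2 stood at -0.08 and -0.27 and passed in neither. The heterozygous call ended without heterozygous 2, heterozygous 3 or wild type 2, and the homozygous value passed without wild type 1 (-0.55) and by DESeq2.

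**Figure D1:**
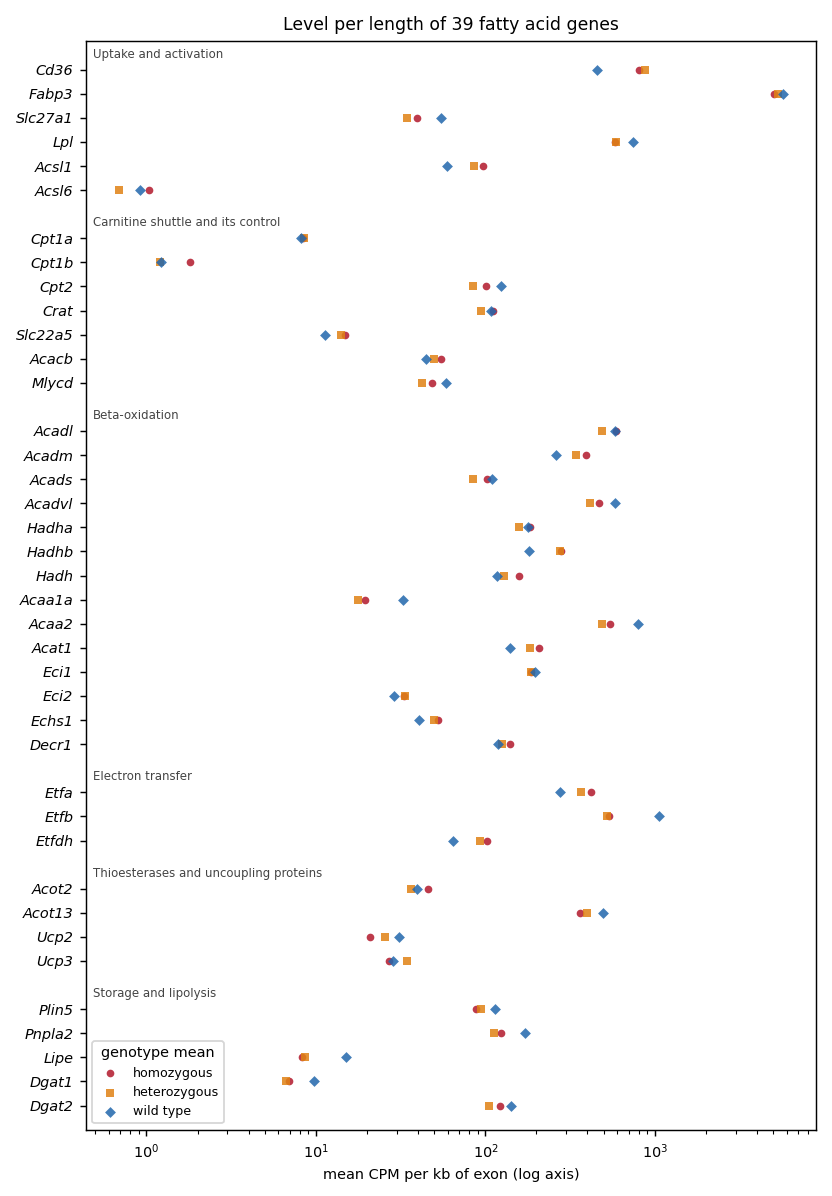
Mean level per kb of merged exon (CPM per 1000 exon bases, log axis) of the 39 genes in homozygous, heterozygous and wild-type hearts, grouped by role. The genes run from about 1 CPM per kb (Acsl6, Cpt1b) to 5712 CPM per kb (Fabp3 in wild type), and the genotypes lie close together beside that range.

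Per exon length, the fatty acid carrier Fabp3 was the most abundant member in every genotype, at 5019 CPM per kb in homozygous, 5348 in heterozygous and 5712 in wild-type hearts. Acsl6 had the lowest level per length in every genotype, at 1.03, 0.690 and 0.912 CPM per kb in homozygous, heterozygous and wild-type hearts. Summed over the 39 members, the libraries held 27776 to 33436 CPM in homozygous, 28294 to 33820 CPM in heterozygous and 29363 and 33599 CPM in wild-type hearts, ranges that overlap. The sum was thus alike in all genotypes, while single members moved in both directions. Lpl and Fabp3, the members with the most CPM, weigh most in it. Storage and lipolysis summed to 849 to 1077 CPM in homozygous and 792 to 1111 CPM in heterozygous hearts. In wild-type hearts that role had 1316 and 1306 CPM. No other role had a sum that separated all deletion hearts from both wild-type hearts. Fewer cells of a type and less RNA per cell cannot be told apart in whole hearts.

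**Figure D2:**
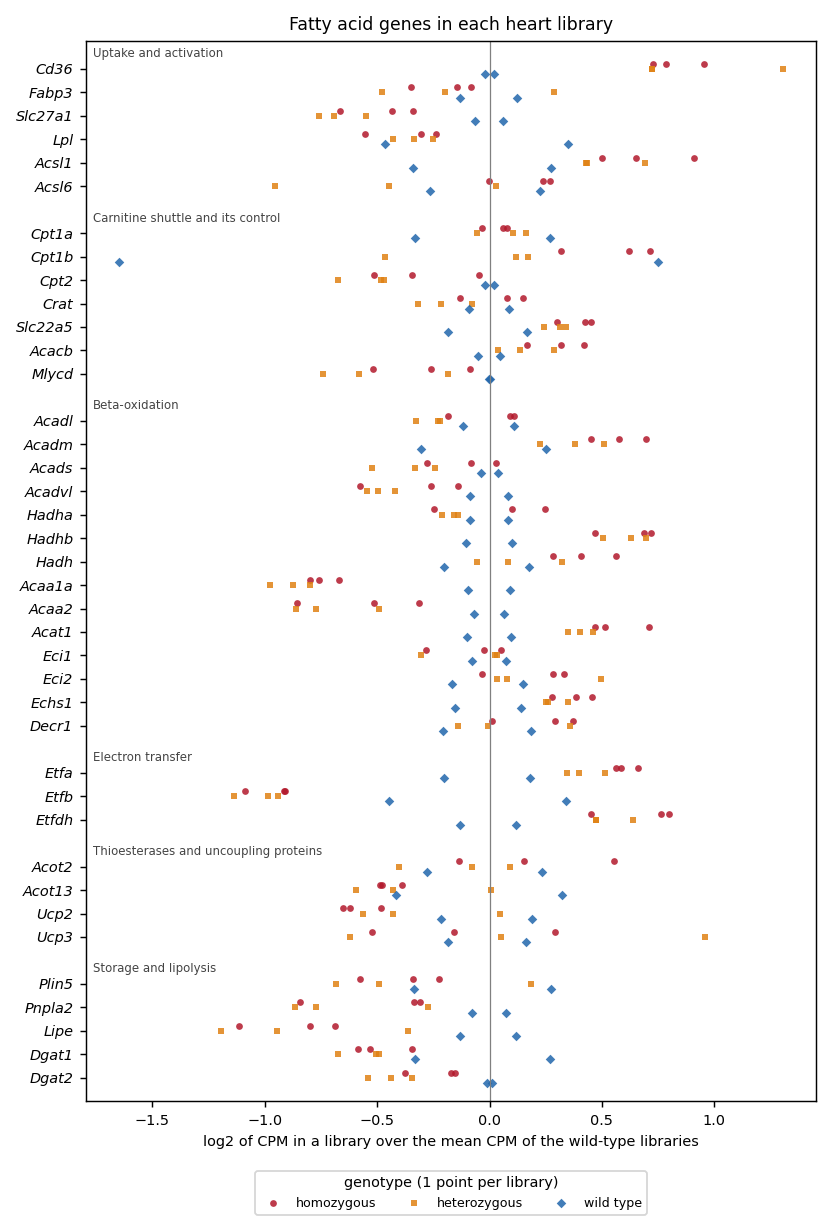
Log2 of each library's CPM over the mean of the wild-type libraries, 1 point per library, for homozygous (circles), heterozygous (squares) and wild-type hearts (diamonds). Both deletion genotypes lie right of both wild-type points for Cd36, Hadhb, Acat1, Etfa and Etfdh and left of both for Acaa1a, Etfb and Lipe, while Cpt1b and Lpl differ most between the wild-type hearts.

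In homozygous against wild-type hearts, 8 of 39 members rose and 6 fell at an adjusted p below 0.05 (quasi-likelihood test of edgeR, Benjamini-Hochberg adjustment over all genes tested). Among all genes tested, 15.3% were called higher and 12.4% lower, so counts of this size set the members little apart from the transcriptome as a whole. Their median log2 fold change was 0.01, against -0.03 for all genes. In heterozygous against wild-type hearts, 4 members rose and 9 fell, beside 15.2% of all genes called higher and 12.8% lower. The count of lower members is above that background, a difference that was not tested, and 3 of these 9 were called in every fit with 1 library left out. The median log2 fold change was -0.17 over the members and -0.03 over all genes. The shares of all genes called higher and lower apply equally beside the counts by role given below. Both comparisons use the same pair of wild-type hearts. Of the 14 members called in homozygous hearts, 5 were called in every fit with 1 library left out (Cd36, Hadhb, Acaa1a, Etfb and Etfdh), and of the 13 called in heterozygous hearts, 5 were (Cd36, Slc27a1, Hadhb, Acaa1a and Etfb).

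Among the 6 genes of uptake and activation, the scavenger receptor Cd36, which carries long-chain fatty acids across the plasma membrane, rose in both deletion genotypes. Cd36 (ENSMUSG00000002944.15, chromosome 5, 17781690 to 17888801, minus strand, mm10) had 2809, 2695 and 3158 CPM in homozygous, 4031, 2692 and 2687 CPM in heterozygous and 1651 and 1608 CPM in wild-type hearts. All 6 deletion hearts lay above both wild-type hearts, and heterozygous 1 was the highest. Cd36 rose by 0.83 on the log2 scale (SE 0.19, adjusted p = 0.0112) in homozygous and by 0.94 (SE 0.20, adjusted p = 0.00601) in heterozygous hearts, that is 1.77-fold and 1.92-fold of wild type. Endothelial cells also make Cd36, and the summed level of 10 endothelial markers was 1068 to 1352 CPM in homozygous, 1076 to 1241 CPM in heterozygous and 1511 and 1436 CPM in wild-type hearts. That sum was lower in the deletion hearts, and the part of endothelial RNA in the level of Cd36 was not tested. None of the 10 markers rose and 3 fell in homozygous hearts, and 1 rose and 2 fell in heterozygous hearts. Flt1 was higher in every deletion heart, at 146 to 180 CPM in homozygous and 159 to 205 CPM in heterozygous hearts. In wild-type hearts it had 134.1 and 133.7 CPM.

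The promoter window of Cd36 is shown because it holds a nuclear receptor half-site, the kind of sequence that receptors of fatty acid genes bind. The window runs from 250 bases before to 50 bases after the annotated start (RefSeq, GRCm38.p6, chr5:17835847-17836146, minus strand), and capitals mark the half-site AGGTCA as it reads on the opposite strand.
Cd36: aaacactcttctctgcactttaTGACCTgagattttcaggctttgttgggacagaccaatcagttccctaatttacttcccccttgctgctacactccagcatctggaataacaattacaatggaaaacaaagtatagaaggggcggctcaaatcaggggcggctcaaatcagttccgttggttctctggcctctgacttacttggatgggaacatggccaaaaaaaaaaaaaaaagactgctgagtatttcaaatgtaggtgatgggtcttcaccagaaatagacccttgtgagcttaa
A match of letters is a description and shows no binding. The RefSeq start used for Cd36, 17835896, lies inside the GENCODE span given above, whose upstream end is 17888801.

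Slc27a1, the fatty acid transport protein 1, fell in both genotypes. It had 237, 202 and 253 CPM in homozygous, 198, 189 and 219 CPM in heterozygous and 334 and 306 CPM in wild-type hearts. Every deletion heart lay below both wild-type hearts. Its log2 fold change was -0.47 (SE 0.14, adjusted p = 0.0262) in homozygous and -0.66 (SE 0.14, adjusted p = 0.00578) in heterozygous hearts, and the homozygous call ended without homozygous 1, homozygous 2 or wild type 1. Acsl1, the main acyl-CoA synthetase of heart muscle, had 1167, 879 and 977 CPM in homozygous, 1003, 838 and 837 CPM in heterozygous and 751 and 491 CPM in wild-type hearts. The groups did not overlap, but the wild-type hearts stood apart from each other. It rose by 0.70 (SE 0.20, adjusted p = 0.0270) on the log2 scale in homozygous hearts, and its value of 0.52 (SE 0.20) in heterozygous hearts did not pass (adjusted p = 0.0757). The homozygous call ended without homozygous 1, homozygous 3 or wild type 2 (0.46 without wild type 2), and the heterozygous difference passed without wild type 1 (0.87) and by DESeq2.

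Lpl, the lipase that frees fatty acids from lipoproteins, had 6586, 5292 and 6283 CPM in homozygous, 6143, 6511 and 5766 CPM in heterozygous and 5627 and 9899 CPM in wild-type hearts. Wild type 2 was far above all other hearts, and wild type 1 lay within the range of the deletion hearts. The log2 fold changes of Lpl, -0.36 and -0.34 in homozygous and heterozygous hearts (SE 0.22 each), did not pass, were 0.14 and 0.16 without wild type 2, and were -0.70 and -0.68, which passed, without wild type 1. Fabp3 had 4253, 3692 and 4445 CPM in homozygous, 5733, 3369 and 4103 CPM in heterozygous and 4289 and 5114 CPM in wild-type hearts. The groups overlapped, and neither log2 fold change (-0.19 and -0.09, SE 0.21 each) passed. Acsl6, another acyl-CoA synthetase, averaged 10.2 ± 1.01 CPM in homozygous, 6.84 ± 2.28 CPM in heterozygous (SD, n = 3 each) and 9.04 ± 2.15 CPM in wild-type hearts (SD, n = 2) and passed in neither comparison.

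In the carnitine shuttle and its control, 1 of 7 members rose in homozygous hearts and 1 fell in heterozygous hearts. Slc22a5, the carnitine transporter OCTN2, had 46.8, 42.9 and 47.6 CPM in homozygous, 43.3, 41.2 and 44.1 CPM in heterozygous and 39.1 and 30.6 CPM in wild-type hearts. All deletion hearts lay above both wild-type hearts. Its log2 fold change in homozygous hearts, 0.39 (SE 0.13, adjusted p = 0.0498), stood at the threshold, and the call ended without any 1 of the homozygous libraries, heterozygous 2, heterozygous 3 or wild type 2, and with scaling by total counts. In heterozygous hearts the value of 0.30 (SE 0.13) did not pass and did so without wild type 1. Cpt2, which returns acyl groups from carnitine to CoA inside mitochondria, had 286, 207 and 232 CPM in homozygous, 211, 185 and 213 CPM in heterozygous and 300 and 291 CPM in wild-type hearts. Both wild-type hearts lay above every deletion heart, with homozygous 1 close behind them. Cpt2 fell by 0.54 on the log2 scale in heterozygous hearts (SE 0.15, adjusted p = 0.0229), a call that ended without heterozygous 2, heterozygous 3 or wild type 2. Its homozygous value of -0.29 (SE 0.15) did not pass.

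The muscle form of carnitine palmitoyltransferase 1, Cpt1b, was counted at unusually low levels for a heart. Cpt1b (ENSMUSG00000078937.8, chromosome 15, 89416405 to 89425863, minus strand) had 6.78, 5.14 and 6.34 CPM in homozygous, 2.99, 4.48 and 4.65 CPM in heterozygous and 6.94 and 1.32 CPM in wild-type hearts. The liver form Cpt1a, which is normally the minor form in adult heart muscle, averaged 63.7 ± 2.64 CPM in homozygous, 65.3 ± 5.02 CPM in heterozygous (SD, n = 3 each) and 62.1 ± 18.001 CPM in wild-type hearts (SD, n = 2). Per exon length, Cpt1a stood at 8.34, 8.55 and 8.13 CPM per kb and Cpt1b at 1.81, 1.198 and 1.22 CPM per kb in homozygous, heterozygous and wild-type hearts. The annotated gene Gm44502 lies on the same strand and shares 2744 of the 3372 exon bases of Cpt1b, which is 81.4%, and Gm44502 has 0 counts in all 8 libraries. How reads that fit both genes were counted is not given in the sources used here, and the part of that overlap in the low level was not tested. The level per length of Cpt1b uses all its exon bases, shared ones included. It therefore does not show which of Cpt1a and Cpt1b was the more abundant form. The wild-type hearts differed 5.27-fold in Cpt1b, and neither comparison with wild type passed (log2 fold changes of 0.56 and -0.02, SE 0.53 each). Without wild type 1 both passed (2.21 in homozygous and 1.63 in heterozygous hearts), and without wild type 2 the homozygous value was -0.16. The direction of Cpt1b therefore rests on which wild-type heart is used.

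The 4 other members of this group passed in neither comparison, Cpt1a among them. Crat, the carnitine acetyltransferase, averaged 596 ± 58.5 CPM in homozygous, 506 ± 42.0 CPM in heterozygous (SD, n = 3 each) and 581 ± 49.5 CPM in wild-type hearts (SD, n = 2). Acacb, the acetyl-CoA carboxylase whose product malonyl-CoA inhibits carnitine palmitoyltransferase 1, averaged 529.5 ± 46.8, 478 ± 42.6 and 429 ± 20.3 CPM in homozygous, heterozygous and wild-type hearts. Mlycd, the malonyl-CoA decarboxylase that removes this inhibitor, averaged 144 ± 21.4, 125 ± 25.5 and 175 ± 0.436 CPM in the same order. Both wild-type hearts lay below every homozygous heart for Acacb and above every homozygous and heterozygous heart for Mlycd, yet neither gene passed in either comparison.

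Beta-oxidation had 3 rises and 2 falls among 14 members in homozygous hearts and 2 rises and 3 falls in heterozygous hearts. Hadhb, the beta subunit of the mitochondrial trifunctional protein, carries its thiolase activity and rose in both. Hadhb (ENSMUSG00000059447.13, chromosome 5, 30155248 to 30184593, plus strand) had 1904, 1639 and 1950 CPM in homozygous, 1921, 1828 and 1682 CPM in heterozygous and 1268 and 1099 CPM in wild-type hearts. No deletion heart overlapped a wild-type heart. Hadhb was higher by 0.63 on the log2 scale (SE 0.15, adjusted p = 0.0107) in homozygous and by 0.61 (SE 0.15, adjusted p = 0.0116) in heterozygous hearts, about 1.55-fold and 1.53-fold of wild type. Hadha, the alpha subunit of the same complex with its hydratase and dehydrogenase activities (ENSMUSG00000025745.12, chromosome 5, 30118304 to 30155162, minus strand), had 1846, 1309 and 1664 CPM in homozygous, 1342, 1394 and 1410 CPM in heterozygous and 1647 and 1463 CPM in wild-type hearts. Its groups overlapped in homozygous against wild-type hearts, and its log2 fold changes of 0.05 and -0.17 (SE 0.16 each) did not pass.

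Hadha and Hadhb are transcribed away from each other, from start sites 273 bases apart in RefSeq (30154980 and 30155253). Their promoter windows of 300 bases share 228 bases. The window of Hadhb (GRCm38.p6, chr5:30155003-30155302, plus strand) is shown because most of it lies between these RefSeq start sites, with that of Hadha just outside it. The GENCODE span of Hadha given above ends at 30155162, inside this window. Capitals mark the stretch that also lies in the window of Hadha.
Hadhb: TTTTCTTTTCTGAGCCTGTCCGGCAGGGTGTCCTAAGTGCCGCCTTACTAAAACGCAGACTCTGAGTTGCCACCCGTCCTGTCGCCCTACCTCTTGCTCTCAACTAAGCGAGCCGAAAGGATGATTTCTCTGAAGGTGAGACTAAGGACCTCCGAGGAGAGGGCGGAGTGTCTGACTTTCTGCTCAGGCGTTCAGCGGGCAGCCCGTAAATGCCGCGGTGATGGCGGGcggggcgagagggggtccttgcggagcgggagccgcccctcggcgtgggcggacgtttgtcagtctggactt
The ratio of Hadhb to Hadha CPM was 1.03, 1.25 and 1.17 in homozygous, 1.43, 1.31 and 1.19 in heterozygous and 0.770 and 0.751 in wild-type hearts. Every deletion heart had the higher ratio. This pair was singled out after its values were seen, so no test is given for the ratio.

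Acadm, the medium-chain acyl-CoA dehydrogenase, had 1662, 1402 and 1529 CPM in homozygous, 1459, 1335 and 1200 CPM in heterozygous and 1223 and 829 CPM in wild-type hearts. All homozygous hearts lay above both wild-type hearts, and heterozygous 3 lay within the wild-type range. It rose by 0.58 on the log2 scale in homozygous hearts (SE 0.18, adjusted p = 0.0386), and the heterozygous value of 0.38 (SE 0.18) did not pass. The homozygous call ended without any 1 of the homozygous libraries, heterozygous 2, heterozygous 3 or wild type 2, where the value was 0.36, and with scaling by total counts, and without wild type 1 the heterozygous value was 0.69 and passed. Its promoter window (GRCm38.p6, chr3:153944594-153944893, minus strand) is shown beside that of Cd36 because it too holds the half-site on the opposite strand, in capitals, near its far end.
Acadm: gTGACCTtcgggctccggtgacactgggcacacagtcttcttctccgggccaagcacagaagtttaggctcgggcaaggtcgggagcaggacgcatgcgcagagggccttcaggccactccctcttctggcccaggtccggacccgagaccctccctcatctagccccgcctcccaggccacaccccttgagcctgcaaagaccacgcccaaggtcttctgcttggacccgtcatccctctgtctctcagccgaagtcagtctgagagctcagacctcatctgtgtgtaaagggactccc
None of the other acyl-CoA dehydrogenases among the members rose. Acadvl, the very long-chain enzyme, had 1419, 1051 and 1308 CPM in homozygous, 1170, 1112 and 1073 CPM in heterozygous and 1476 and 1658 CPM in wild-type hearts. Both wild-type hearts were the highest. Acadvl fell by 0.49 in heterozygous hearts (SE 0.15, adjusted p = 0.0378) and had -0.32 (SE 0.15) in homozygous hearts, which did not pass. The heterozygous call ended without homozygous 3, any 1 of the heterozygous libraries or wild type 2. On Acadvl, 1151 of the 2686 exon bases lie opposite Dvl2, which has its own row in the count table. How reads in these bases were counted is not given in the sources used here. Acadl, the long-chain enzyme, averaged 1181 ± 130.2, 980 ± 40.4 and 1172 ± 131 CPM, and Acads, the short-chain enzyme, 230.4 ± 24.4, 193 ± 18.9 and 248 ± 8.87 CPM in homozygous, heterozygous and wild-type hearts, and neither passed.

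The thiolases Acaa1a, Acaa2 and Acat1 moved apart. With the offset for gene properties described further on, none of these passed in either comparison. Acaa1a, a thiolase of peroxisomes, had the smallest adjusted p of all members. Acaa1a (ENSMUSG00000036138.16, chromosome 9, 119339676 to 119350299, plus strand) had 90.4, 82.5 and 84.9 CPM in homozygous, 78.3, 72.9 and 82.5 CPM in heterozygous and 134 and 153 CPM in wild-type hearts. Every deletion heart lay well below both wild-type hearts. It fell by 0.74 (SE 0.11, adjusted p = 0.00164) in homozygous and by 0.88 (SE 0.11, adjusted p = 0.000651) in heterozygous hearts on the log2 scale. Its near copy Acaa1b was at no more than 0.499 CPM in any library. Acaa2, the mitochondrial thiolase, had 964, 661 and 838 CPM in homozygous, 851, 701 and 660.2 CPM in heterozygous and 1143 and 1252 CPM in wild-type hearts. The groups did not overlap. Its falls of 0.54 (SE 0.18, adjusted p = 0.0435) in homozygous and 0.70 (SE 0.18, adjusted p = 0.0152) in heterozygous hearts ended without wild type 2, heterozygous 2 or heterozygous 3. In homozygous hearts the call was lost without homozygous 2 or homozygous 3 as well. The ketothiolase Acat1 had 748, 725 and 855 CPM in homozygous, 719, 691 and 665 CPM in heterozygous and 558 and 488 CPM in wild-type hearts, again without overlap. It rose by 0.57 (SE 0.14, adjusted p = 0.0126) in homozygous hearts, a call lost without homozygous 3, and by 0.40 (SE 0.14, adjusted p = 0.0494) in heterozygous hearts, a call at the threshold that was kept only without wild type 1 among the fits with 1 library left out, and that ended with scaling by total counts or no filter on low counts.

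Of the remaining 5 members of beta-oxidation none passed. Hadh, the 3-hydroxyacyl-CoA dehydrogenase of shorter chains, averaged 785 ± 77.0, 639 ± 86.4 and 586 ± 108 CPM, and Echs1, the short-chain enoyl-CoA hydratase, 438 ± 27.2, 412 ± 15.7 and 337.5 ± 48.7 CPM in homozygous, heterozygous and wild-type hearts. Their log2 fold changes were 0.42 and 0.37 in homozygous and 0.13 and 0.29 in heterozygous hearts, and without wild type 1 both passed in homozygous hearts (0.63 and 0.54) and Echs1 in heterozygous hearts (0.45). By DESeq2 both passed in homozygous hearts, and Echs1 did by limma-voom too. The enoyl-CoA isomerases Eci1 and Eci2 averaged 393 ± 46.4 and 184 ± 24.4 CPM in homozygous, 395 ± 50.5 and 186 ± 34.2 CPM in heterozygous and 415 ± 30.8 and 160 ± 24.4 CPM in wild-type hearts. Decr1, the 2,4-dienoyl-CoA reductase, averaged 539 ± 68.2, 487 ± 90.1 and 459 ± 87.4 CPM in the same order. Echs1 was above both wild-type hearts in every deletion heart and Hadh in every homozygous heart, whereas Eci1, Eci2 and Decr1 overlapped wild type in both genotypes.

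All 3 members of electron transfer passed in homozygous hearts, 2 higher and 1 lower, and the subunits of the electron transfer flavoprotein moved in opposite directions. Etfa, its alpha subunit (ENSMUSG00000032314.14, chromosome 9, 55454508 to 55512243, minus strand), had 756, 745 and 798 CPM in homozygous, 721, 664 and 641 CPM in heterozygous and 571 and 438 CPM in wild-type hearts. Etfb, its beta subunit (ENSMUSG00000004610.4, chromosome 7, 43444083 to 43457800, plus strand), had 652, 577 and 650.3 CPM in homozygous, 620.02, 558 and 638 CPM in heterozygous and 901 and 1553 CPM in wild-type hearts. Neither gene overlapped between deletion and wild-type hearts, and wild type 2 was the extreme library for both. Etfa rose by 0.60 (SE 0.15, adjusted p = 0.0134) in homozygous hearts, and its heterozygous value of 0.42 (SE 0.15) did not pass (adjusted p = 0.0552). The homozygous call of Etfa ended without homozygous 3 or wild type 2 (0.46), and the heterozygous difference passed without wild type 1 (0.63), by DESeq2 and by limma-voom.

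Etfb fell by 0.97 (SE 0.20, adjusted p = 0.00626) in homozygous and by 1.02 (SE 0.20, adjusted p = 0.00474) in heterozygous hearts, to 0.511-fold and 0.494-fold of wild type. Both falls passed in every fit with 1 library left out, but their size turned on wild type 2, without which they were -0.49 and -0.54. On Etfb, 617 of 1164 exon bases are shared on the same strand with Gm45233, which has no row in the count table. Etfdh, the dehydrogenase that passes the electrons on to ubiquinone (ENSMUSG00000027809.14, chromosome 3, 79603788 to 79629500, minus strand), had 838, 659 and 816 CPM in homozygous, 748, 668 and 668 CPM in heterozygous and 523 and 440 CPM in wild-type hearts. All deletion hearts lay above both wild-type hearts. Etfdh rose by 0.68 (SE 0.16, adjusted p = 0.00976) in homozygous and by 0.53 (SE 0.15, adjusted p = 0.0277) in heterozygous hearts. The heterozygous call ended without any 1 of the heterozygous libraries or wild type 2.

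**Figure D3:**
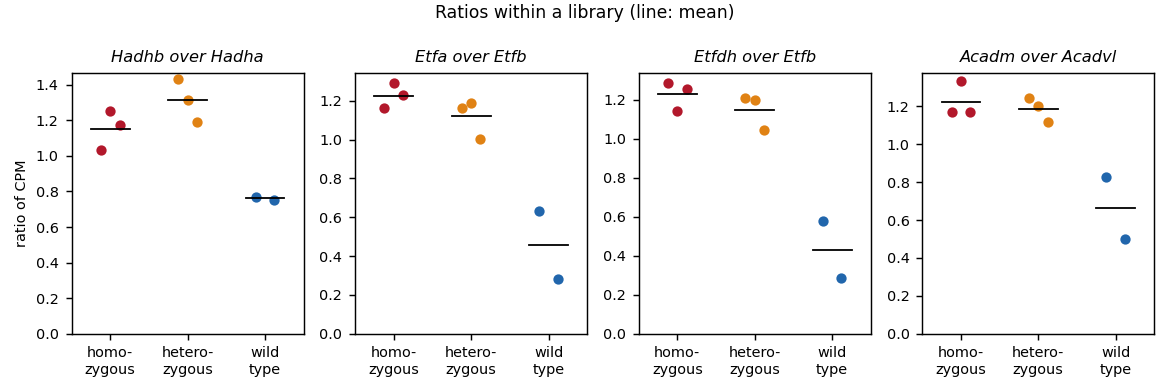
Ratios of CPM of pairs of members within each library, for homozygous, heterozygous and wild-type hearts (points: libraries, line: mean). In each of the 4 pairs the 6 deletion hearts lie at 1.004 or above and both wild-type hearts at 0.829 or below. The first gene of each pair has the lower GC content, and no offset for gene properties was applied.

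The ratio of Etfa to Etfb was 1.16, 1.29 and 1.23 in homozygous, 1.16, 1.19 and 1.004 in heterozygous and 0.634 and 0.282 in wild-type hearts. That of Etfdh to Etfb was 1.29, 1.14 and 1.26 in homozygous, 1.21, 1.197 and 1.05 in heterozygous and 0.580 and 0.283 in wild-type hearts. The dehydrogenase ratio of Acadm to Acadvl was 1.17, 1.33 and 1.17 in homozygous, 1.25, 1.201 and 1.12 in heterozygous and 0.829 and 0.5002 in wild-type hearts. In all of these the deletion hearts lay above both wild-type hearts, and wild type 2 had the lowest ratio. The first gene of each pair, and of Hadhb to Hadha, had the lower transcript GC content. It was 45.0% for Etfa and 47.1% for Etfdh against 57.1% for Etfb. Acadm held 48.0% against 53.7% for Acadvl, and Hadhb 45.4% against 51.3% for Hadha. The ratios carry no offset for gene properties (described further on), and the part of GC content in them was not tested. As with Hadhb and Hadha, the pairs were chosen with their values known, and no test is given. Of 6 pairs computed, Hadhb over Acaa2 was likewise higher in every deletion heart, at 1.97 to 2.48 in homozygous, 2.26 to 2.61 in heterozygous and 1.11 and 0.878 in wild-type hearts. Cpt1a over Cpt1b did not separate the genotypes, at 9.57 to 11.8 in homozygous, 12.9 to 22.3 in heterozygous and 10.8 and 37.5 in wild-type hearts.

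Of the thioesterases and uncoupling proteins, 1 of 4 passed, in homozygous hearts. Ucp2, an uncoupling protein of the inner mitochondrial membrane found in many tissues, had 141, 138 and 155 CPM in homozygous, 225, 147 and 161 CPM in heterozygous and 247 and 187 CPM in wild-type hearts. The homozygous hearts lay below both wild-type hearts, and heterozygous 1 lay between them. Ucp2 fell by 0.59 (SE 0.19, adjusted p = 0.0399) in homozygous hearts, a call lost without any 1 of the homozygous libraries, heterozygous 3 or wild type 1 (-0.36), and its heterozygous value of -0.29 (SE 0.19) did not pass. Ucp3, the muscle uncoupling protein, had 109.8, 62.3 and 80.2 CPM in homozygous, 174, 58.3 and 92.8 CPM in heterozygous and 100.3 and 78.9 CPM in wild-type hearts, a 2.99-fold spread among heterozygous hearts with heterozygous 1 at the top. Acot2, a mitochondrial acyl-CoA thioesterase, averaged 100.5 ± 24.3, 79.7 ± 13.5 and 86.4 ± 21.5 CPM, and Acot13, another acyl-CoA thioesterase of mitochondria, 269 ± 10.04, 295 ± 66.0 and 368 ± 131 CPM in homozygous, heterozygous and wild-type hearts. The related gene Acot1, whose sequence is close to that of Acot2, had 11.3 to 32.3 CPM, and reads of the pair could be shared between them.

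Every one of the 5 members of storage and lipolysis had a negative log2 fold change in both comparisons. Among all 15075 genes tested, 7850 were negative in homozygous and 7828 in heterozygous hearts. The medians of the 5 members were -0.48 in homozygous and -0.56 in heterozygous hearts, and 1 and 3 of them passed. With an offset for gene properties, described further on, 3 of the 5 turned positive in homozygous and 1 in heterozygous hearts, and none passed. Lipe, hormone-sensitive lipase (ENSMUSG00000003123.15, chromosome 7, 25379527 to 25398710, minus strand), had 54.5, 40.5 and 50.5 CPM in homozygous, 68.4, 38.4 and 45.7 CPM in heterozygous and 80.4 and 95.5 CPM in wild-type hearts. Both wild-type hearts were the highest. Lipe fell by 0.86 (SE 0.22, adjusted p = 0.0177) in homozygous and by 0.79 (SE 0.22, adjusted p = 0.0247) in heterozygous hearts. The homozygous call ended without homozygous 2 or wild type 2 (-0.70), the heterozygous one without heterozygous 2, heterozygous 3 or wild type 2 (-0.63). Lipe shares 918 of 5886 exon bases with 4732471J01Rik on the opposite strand. Dgat1 and Dgat2 encode the enzymes of the last step of triglyceride synthesis. Dgat1 had 19.8, 23.5 and 20.6 CPM in homozygous, 21.1, 20.9 and 18.7 CPM in heterozygous and 23.6 and 35.9 CPM in wild-type hearts, and Dgat2 had 389.5, 338 and 394.5 CPM in homozygous, 324, 301 and 346 CPM in heterozygous and 435 and 442 CPM in wild-type hearts. Wild type 1 stood barely above the deletion hearts for Dgat1, whereas both wild-type hearts were clearly the highest for Dgat2.

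In heterozygous hearts Dgat1 fell by 0.56 (SE 0.18, adjusted p = 0.0429) and Dgat2 by 0.44 (SE 0.13, adjusted p = 0.0282), while the homozygous values of -0.48 (SE 0.18) and -0.23 (SE 0.13) did not pass. The Dgat1 call was kept, among the fits with 1 library left out, only without wild type 1 (where the homozygous value of -0.75 passed too), and without wild type 2 it was -0.19. By limma-voom the heterozygous call of Dgat1 was not made. The Dgat2 call ended without heterozygous 1, heterozygous 2 or wild type 2. Pnpla2, the adipose triglyceride lipase that starts lipolysis, had 409.8, 288 and 418 CPM in homozygous, 428, 284 and 303 CPM in heterozygous and 489 and 544 CPM in wild-type hearts. All deletion hearts lay below both wild-type hearts, yet its log2 fold changes of -0.48 and -0.61 (SE 0.21 each) did not pass (adjusted p = 0.115 and 0.0503), and the heterozygous one passed without heterozygous 1 (-0.79) or homozygous 2. It also passed with scaling by total counts, with no filter on low counts, by DESeq2 and by limma-voom, so its side of the threshold depends on the setting. Plin5, the lipid droplet protein that tethers droplets to mitochondria, averaged 183 ± 22.3, 196 ± 65.3 and 237 ± 69.9 CPM in homozygous, heterozygous and wild-type hearts, and its groups overlapped.

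Fat cells attached to a heart would add to the lipolysis genes, so their markers are given beside them. Of 14 adipocyte markers, 7 had enough counts to be tested, and 0 rose and 2 fell in each comparison. Their summed level was 83.6 to 103 CPM in homozygous, 74.8 to 150.3 CPM in heterozygous and 107 and 191 CPM in wild-type hearts, most of it Thrsp, Scd1 and Cidea. The defining marker Adipoq had 4, 0 and 0 counts in homozygous, 0 counts in each heterozygous and 5 and 24 counts in wild-type hearts, and Cfd had 0.305, 0.105 and 0 CPM, 0.181, 0 and 0 CPM, and 1.08 and 11.1 CPM. Wild type 2 was the highest library for both, and adipocyte RNA's part in the lower lipolysis levels was not tested. Markers of muscle cells moved as well. The sum of 9 ventricular and general cardiomyocyte markers was 67140 to 76340 CPM in homozygous and 67870 to 71980 CPM in heterozygous hearts. In wild-type hearts it was 84030 and 97700 CPM. Of the 9, 1 rose and 3 fell in homozygous and 1 rose and 4 fell in heterozygous hearts. With the offset, 1 rose and 0 fell in each. Pln was higher, at 7041 to 8057 CPM in homozygous and 8098 to 8999 CPM in heterozygous hearts, against 4565 and 4415 CPM in wild type. Of the atrial markers, 3 of 4 (Myl4, Myl7 and Sln) fell in both comparisons. Fibroblast markers summed to 1400 to 1907 CPM in homozygous, 1628 to 1974 CPM in heterozygous and 2487 and 1441 CPM in wild-type hearts, and macrophage markers to 449 to 458, 437 to 638.5, and 476 and 392 CPM. Their part in the members' levels was not tested.

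**Figure D4:**
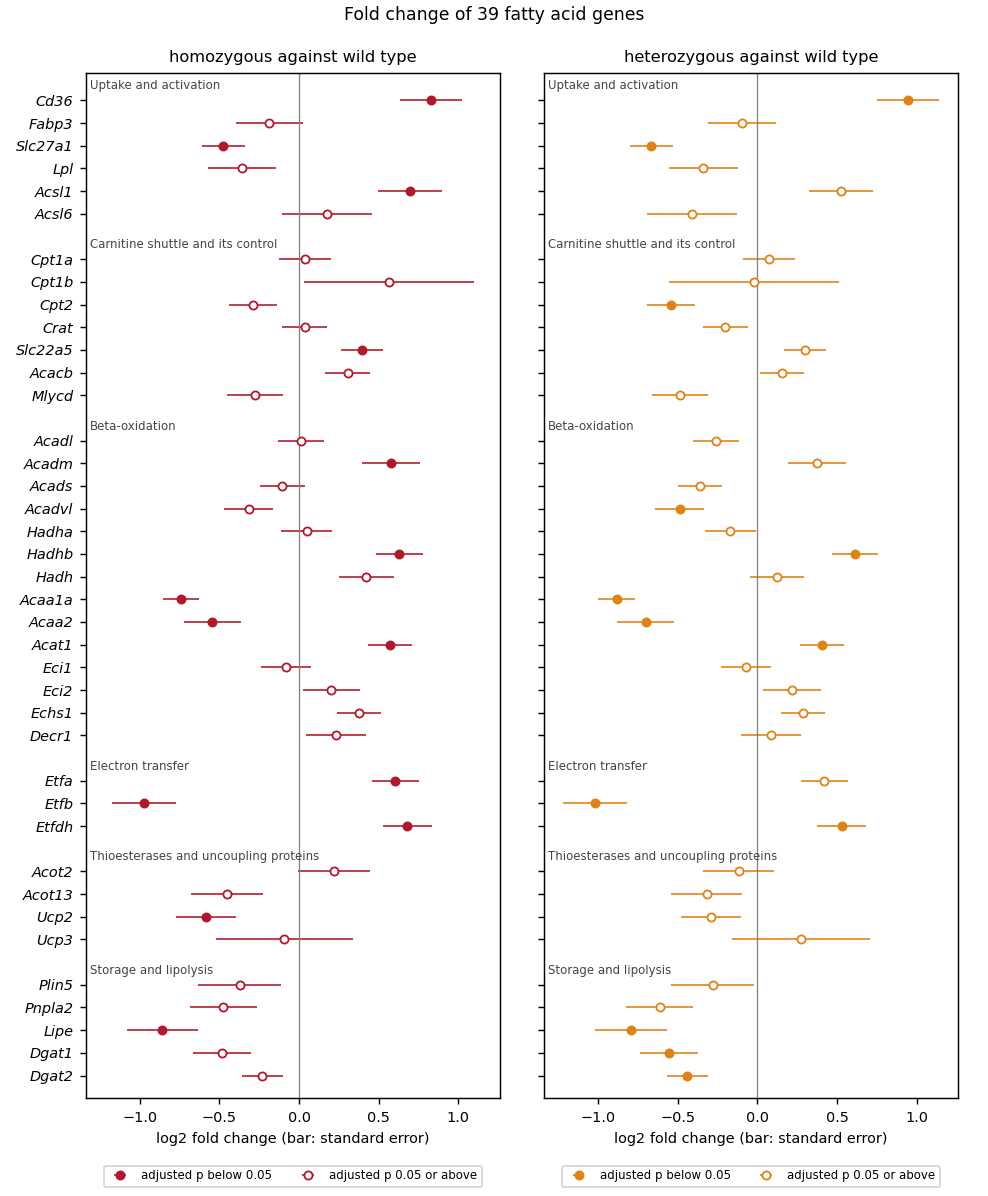
Log2 fold change with its standard error of the 39 genes, homozygous against wild type on the left and heterozygous against wild type on the right. Filled points passed the test: 8 higher and 6 lower in homozygous hearts, 4 higher and 9 lower in heterozygous hearts.

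Homozygous against heterozygous hearts asks whether the second deleted copy adds to the first. None of the 39 members differed, and neither did any other gene, 0 of 15075 (0%) by edgeR. At an unadjusted p below 0.05 there were 411 genes and 1 member, and DESeq2 called 3 genes and limma-voom 0, with no member in either. The members' log2 fold changes, homozygous over heterozygous, ran from -0.37 (Ucp3) to 0.58 (Cpt1b and Acsl6), with a median of 0.15 beside -0.00193 for all genes. Of the members, 28 were positive and 11 negative, beside 7471 positive and 7603 negative among all genes. Ucp3 turned to 0.15 without heterozygous 1. Within genotypes, 37 of 39 members had their lowest homozygous level in homozygous 2, where 32.9% of all genes had theirs, and 26 of 39 had their highest heterozygous level in heterozygous 1, where 37.5% of all genes had theirs. Most members were thus lowest of their genotype in homozygous 2 and highest in heterozygous 1.

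The members that rose and those that fell differed in base composition. In homozygous hearts the transcripts of the 8 members that rose held 38.4% to 49.8% GC (median 46.3%), and those of the 6 that fell held 52.8% to 59.4% (median 56.4%). In heterozygous hearts the 4 that rose held 38.4% to 47.1% and the 9 that fell 52.6% to 59.4%. No member that rose overlapped one that fell in GC content in either comparison. The same trend ran through the whole table, where the median was 45.0% GC among genes called higher and 55.5% among genes called lower in homozygous hearts, and 44.6% and 55.7% in heterozygous hearts. Genes called higher also had longer transcripts, with a median of 4866 bases against 1971 bases for genes called lower in homozygous hearts. What gave this trend was not tested, and a difference in handling between the wild-type and deletion libraries cannot be told apart from genotype here.

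**Figure D5:**
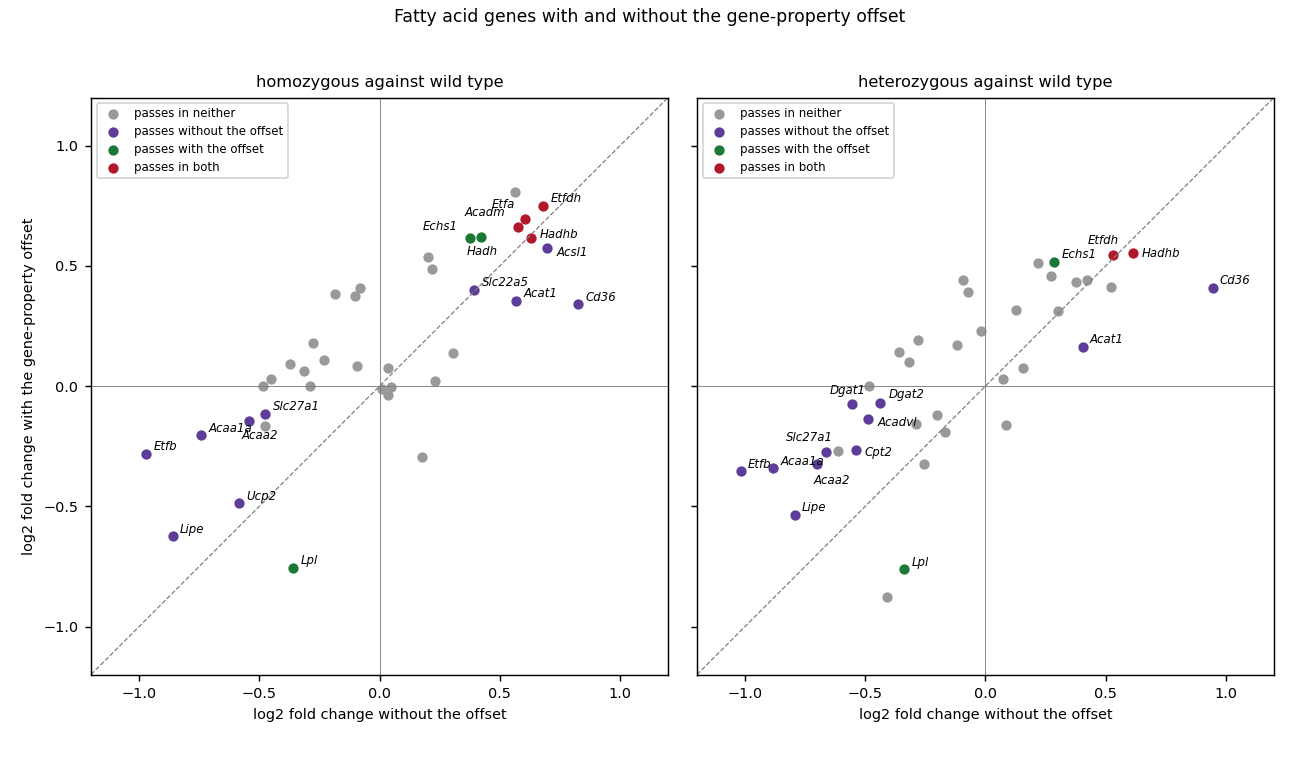
Log2 fold change of the 39 genes without (horizontal) and with (vertical) an offset for GC content, transcript length and length of the 3' UTR, homozygous against wild type on the left and heterozygous against wild type on the right. The dashed line marks equality and colour marks where a gene passed: Hadhb and Etfdh passed both ways in both panels, while Etfb, Acaa1a and Lipe passed without the offset and lie closer to 0 with it.

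A fit with an offset in each library for GC content, transcript length and length of the 3' UTR gave another set of calls. With it, 6 members were higher and 1 lower in homozygous hearts, beside 8.4% and 5.74% of the 13910 genes that could be fitted, and 3 were higher and 1 lower in heterozygous hearts, beside 7.75% and 5.62%. The rises of Hadhb (0.62 and 0.55) and Etfdh (0.75 and 0.54) passed in both genotypes, and those of Etfa (0.69) and Acadm (0.66) in homozygous hearts. Echs1 (0.62 and 0.52) passed in both and Hadh (0.62) in homozygous hearts, which had not passed without the offset. Cd36 kept its direction at 0.34 and 0.41 and no longer passed. The calls of Acat1 (0.36 and 0.16 with the offset) ended in both genotypes. Those of Acsl1 (0.57) and Slc22a5 (0.40) ended in homozygous hearts. None of the members that fell without the offset passed with it. Etfb stood at -0.28 and -0.35, Acaa1a at -0.21 and -0.34, Lipe at -0.62 and -0.53, and Slc27a1 at -0.11 and -0.27. Lpl was the lower member (-0.75 and -0.76) and rested on wild type 2, as above. Of the members called without the offset, 4 of 14 in homozygous and 2 of 13 in heterozygous hearts were called with it in the same direction. Over all 39 members the median log2 fold change was 0.09 in homozygous and 0.08 in heterozygous hearts with the offset, and the sign of 15 and 8 members changed. Without wild type 2 and with the offset, no member was called in either comparison.

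Other genes of the same pathways were read from a list of 66, of which 61 had enough counts. Of these, 11 rose and 7 fell in homozygous hearts and 8 rose and 9 fell in heterozygous hearts, with medians of 0.00328 and -0.00424 on the log2 scale. These shares are near the 15.3% higher and 12.4% lower, and the 15.2% and 12.8%, of all genes. With the offset, 7 rose and 3 fell in homozygous and 4 rose and 2 fell in heterozygous hearts. Gpam, the mitochondrial enzyme that starts glycerolipid synthesis, rose to 240.03, 172 and 247 CPM in homozygous and 208, 145 and 168 CPM in heterozygous hearts, against 57.6 and 17.1 CPM in wild-type hearts. Fitm2, which helps lipid droplets form, had 148, 134 and 146 CPM in homozygous, 110.3, 115 and 137 CPM in heterozygous and 66.0 and 40.9 CPM in wild-type hearts. Both genes of storage were higher in all deletion hearts. The log2 fold changes of Gpam were 2.56 and 2.22 (SE 0.48 and 0.47, adjusted p = 0.00730 and 0.0114). Those of Fitm2 were 1.42 and 1.18 (SE 0.19 each, adjusted p = 0.000881 and 0.00195), and both genes also passed with the offset. Other storage genes went both ways: Lpin1 rose and Bscl2 and Agpat2 fell in both genotypes, and Dgat1 and Dgat2 fell in heterozygous hearts. The offset ended all of these latter calls.

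In oxidation, Crot, the peroxisomal carnitine octanoyltransferase, had 55.3, 56.1 and 61.1 CPM in homozygous, 68.9, 57.7 and 52.1 CPM in heterozygous and 27.8 and 27.0 CPM in wild-type hearts. Its log2 fold changes of 1.07 and 1.12 (SE 0.14 each, adjusted p = 0.000702 and 0.000582) passed with the offset too (0.86 and 0.88), as did those of Ivd, the isovaleryl-CoA dehydrogenase that also feeds the electron transfer flavoprotein (1.09 and 0.82). Acot7, a cytosolic thioesterase, fell by 0.63 and 0.88, and Mmaa, which serves the cobalamin-dependent end of propionate breakdown, by 0.54 and 0.55, of which Mmaa also passed with the offset. Acad10 (-0.94 and -1.17) and Cpt1c (-0.99 and -1.33), relatives of member enzymes, fell, and Abcd2, a peroxisomal importer of long acyl chains, rose (0.70 and 0.74). In uptake, the lipoprotein receptor Vldlr rose by 1.14 and 0.92, the acyl-CoA synthetase Acsl4 by 0.50 and 0.62, and Gpihbp1, which anchors lipoprotein lipase to capillaries, fell by 0.94 and 0.69. Lmf1, which matures the lipase, fell in heterozygous hearts by 0.54. In storage, Lpin1 rose by 0.57 and 0.69, Bscl2 fell by 0.63 and 0.55, Agpat2 fell by 0.53 each, and Abhd5, the activator of Pnpla2, rose by 0.38 in homozygous hearts. The offset ended the calls of Acot7, Cpt1c, Abcd2, Acsl4, Gpihbp1, Lpin1, Bscl2 and Agpat2 in both genotypes, of Acad10 and Abhd5 in homozygous and of Vldlr and Lmf1 in heterozygous hearts. Scaling by total counts also ended that of Abhd5. With the offset Acsl4 stood at -0.15 and -0.064, Agpat2 at -0.015 and -0.0053, and Bscl2 at -0.18 and -0.11. Abcd2 stood at 0.12 and 0.14 with the offset, and Lmf1 at -0.057 in heterozygous hearts. Without wild type 2 the calls of Gpihbp1, Mmaa, Acad10, Cpt1c, Abcd2, Bscl2 and Agpat2 in both genotypes ended, as did those of Acsl4 and Abhd5 in homozygous and of Lmf1 and Ivd in heterozygous hearts. In homozygous hearts, calls also ended without homozygous 1 (Acsl4, Bscl2, Lpin1, Agpat2, Abhd5, Acad10 and Cpt1c), homozygous 2 (these and Abcd2), homozygous 3 (Acsl4, Agpat2, Abhd5, Abcd2 and Cpt1c), heterozygous 2 (Abhd5), heterozygous 3 (Agpat2 and Abhd5) or wild type 1 (Lpin1). In heterozygous hearts they ended without heterozygous 1 (Bscl2), heterozygous 2 (Gpihbp1, Lmf1, Bscl2, Agpat2 and Abcd2), heterozygous 3 (Gpihbp1, Lmf1 and Agpat2), homozygous 1 or 3 (Agpat2) or homozygous 2 (Bscl2). Vldlr, Fitm2, Gpam, Crot and Acot7 were called in every fit with 1 library left out.

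Of 16 regulators of the pathway, all tested, 9 rose and 0 fell in homozygous hearts and 8 rose and 0 fell in heterozygous hearts, beside 15.3% and 15.2% of all genes called higher. The other 7 and 8 did not pass, and 3 of the 16 had negative values in each comparison. The list was chosen with earlier results of these data known, so these counts only describe it. The list had log2 fold changes with medians of 0.63 and 0.75, and with the offset the counts were again 9 and 8 higher and 0 lower. Prkaa2, a catalytic subunit of the energy sensor AMPK, which inactivates Acacb by phosphorylation, had 271, 267 and 269.6 CPM in homozygous, 217, 258 and 242 CPM in heterozygous and 81.7 and 62.6 CPM in wild-type hearts. Its log2 fold changes were 1.90 (SE 0.15, adjusted p = 8.19e-05) and 1.73 (SE 0.15, adjusted p = 0.000109), and Prkab2, a regulatory subunit, had 1.30 and 0.98. The oestrogen-related receptors Esrrg (1.38 and 1.40) and Esrrb (0.97 and 0.96) also rose in both. Ppara, the receptor that fatty acids activate, had 171, 166 and 181 CPM in homozygous, 127, 219 and 213 CPM in heterozygous and 99.1 and 85.8 CPM in wild-type hearts. It rose by 0.90 and 1.01 (SE 0.21 each, adjusted p = 0.0114 and 0.00674), its coactivator Ppargc1b by 1.002 and 1.27, and Tfam, which maintains mitochondrial DNA, by 0.74 and 0.85. Without wild type 2 the calls of Ppara in both genotypes and of Ppargc1b in homozygous hearts ended. Tfam did not pass with the offset in homozygous hearts. The regulators that passed were all higher, beside members that passed in both directions.

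Of the 39 members, 30 had a promoter window in the RefSeq table of GRCm38.p6. The half-site AGGTCA, read on both strands, was found in 9 of the 30 windows (30.0%: Acacb, Acadm, Acadvl, Acsl6, Cd36, Cpt1a, Echs1, Plin5 and Ucp3), beside 18.1% of all 27025 windows. Acadm, Cd36 and Acadvl are the ones among these that were called without the offset, the last of them lower. The paired element AGGTCANAGGTCA, which receptors for fatty acids such as Ppara are known to bind, was in 0 of the 30 windows and in 0.0481% of all. The extended element TCAAGGTCA, known from oestrogen-related receptors, was in 1 window, that of Acsl6, and in 0.466% of all, and it contains the half-site. A window without a match says only that these letters are not in it.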

How the data were processed

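Whole-heart RNA of 8 mice was extracted with Trizol and sequenced from TruSeq libraries, per the labels' protocols. The deposited table holds raw read counts per gene symbol, made by the authors on mm10, and the submitters' processing notes name Trimmomatic 0.36, HISAT2, Subread, featureCounts and DESeq2. No source used here gives the strand setting or the treatment of multimapping reads. Genotypes came from the labels. In edgeR 4.0.16, genes that passed filterByExpr (minimum count 10) were scaled by TMM, fitted over all 8 libraries with the robust quasi-likelihood F test in R 4.3.3, and adjusted by Benjamini-Hochberg over 15075 genes at 0.05. The test was tried on simulated data with known changes. Positions and gene properties came from GENCODE vM21, matched by symbol for 23760 genes (96.9%). The offset used splines with 4 degrees of freedom per property and library. Alternatives were DESeq2 1.42.0, limma-voom (limma 3.58.1), other scalings, no filter, only the groups compared, a replicate block and leaving out each library. Libraries held 22230090 to 55902737 counts. The members and gene lists were chosen with earlier results of these data known. All members were described, and of the other pathway lists and regulators up to 6 genes per list with the smallest p among those that passed were named.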

Additional observations from a re-analysis of the deposited data

How the results depend on the processing

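Over the 101 fold changes followed, DESeq2 size factors changed no call or direction, and the DESeq2 test ended none and added 6, with 16 members and 4874 genes called in homozygous and 18 members and 4943 genes in heterozygous hearts. Fitting only the groups compared left 9 members called in homozygous hearts, and 7 members and 2668 genes in heterozygous hearts. The offset for gene properties left 7 members and 1966 genes in homozygous and 4 members and 1860 genes in heterozygous hearts, and the offset without wild type 2 left 0 members in either, with 732 and 677 genes. Leaving out 1 library gave 7 to 19 members and 2135 to 5717 genes in homozygous and 5 to 22 members and 2359 to 5634 genes in heterozygous hearts. Homozygous against heterozygous hearts gave 2 genes with no filter on low counts, 3 by DESeq2, 1 with the offset without wild type 1 or without wild type 2, and 0 to 1 with a library left out.

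With the offset, the sign of 15 members in homozygous and 8 in heterozygous hearts changed. Values are given here on the log2 scale for the genes whose fold changes are printed above, and members without a printed fold change also changed sign. With the offset, with it and without wild type 1, and with it and without wild type 2, homozygous values were 0.38, 0.48 and 0.30 for Fabp3, 0.062, 0.047 and 0.097 for Acadvl, 0.11, 0.12 and 0.13 for Dgat2, and -0.15, -0.14 and -0.15 for Acsl4, and heterozygous values 0.44, 0.54 and 0.36 for Fabp3 and -0.064, -0.043 and -0.054 for Acsl4. With the offset alone, homozygous values were 0.00068 for Cpt2, -0.0048 for Hadha and 0.0021 for Dgat1. Without wild type 1 besides, Cpt2 was 0.068 in homozygous and Ucp2 0.039 in heterozygous hearts. Without wild type 2 besides, homozygous values were -0.024 for Hadha, 0.27 for Dgat1, 0.15 for Agpat2 and 0.028 for Actn2, and heterozygous ones 0.18 for Dgat1 and 0.15 for Agpat2. Cpt1b in heterozygous hearts was 0.48 by limma-voom, 0.17 with the replicate block, 0.23 with the offset and 1.90 with the offset without wild type 1. With a library left out, Lpl ran from -0.70 to 0.14, Cpt1b from -0.16 to 2.21 and Hadha from -0.065 to 0.18 in homozygous hearts, and Fabp3 from -0.30 to 0.072, Lpl from -0.68 to 0.16, Cpt1b from -0.74 to 1.63 and Hadh from -0.021 to 0.33 in heterozygous hearts. Ucp3, homozygous over heterozygous, ran from -0.67 to 0.15. The cause was not tested.

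The labels do not say that a replicate number pairs samples, so the samples are not taken as pairs. Same-numbered homozygous and heterozygous hearts deviated together at r = 0.18, 0.14 and -0.02, and those with unlike numbers at -0.23 to 0.13. With so few hearts these values cannot decide whether samples were paired. With the replicate number as a block, 12 members and 3328 genes were called in homozygous and 11 members and 3376 genes in heterozygous hearts. The block ended the calls of Slc22a5, Acaa2, Agpat2, Abhd5, Acad10, Abcd2 and Cpt1c in homozygous and of Acadvl, Acat1, Dgat1, Gpihbp1, Lmf1, Agpat2 and Actn2 in heterozygous hearts, and Acsl1 passed in heterozygous hearts (0.58). Both comparisons share the pair of wild-type hearts, whose correlation lies below that of every pair of deletion hearts. Cpt1b and Acsl6 were the members with the fewest counts, at 1295 and 2320 over all 8 libraries. The part of depth in their spread was not tested.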
